A study of Homo sapiens with 18 samples.

Results

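The proteasome subunits examined here were the genes whose symbols begin with PSMA, PSMB, PSMC or PSMD followed by a number, 39 of the 23399 genes in the deposited expression table. They were chosen by symbol alone. Expression was measured by RNA-seq after ribosomal RNA depletion in U2OS-MycER cells, a human osteosarcoma line that carries MycER, a fusion of Myc with the estrogen receptor delivered by a pbabe-puro retrovirus. All 8 groups carried MycER, which 4-hydroxytamoxifen (OHT) activates, and each group received either an siRNA pool against the cohesin subunit RAD21 (siRAD21) or an siRNA against Renilla luciferase (siCtrl). OHT (400 nM) or ethanol was added together with the siRNA, and RNA was taken after 24 or 48 h. The ethanol groups are written siCtrl and siRAD21, and the OHT groups siCtrl OHT and siRAD21 OHT. There were 3 libraries each for siCtrl and siCtrl OHT at 48 h, and 2 for each of the other 6 groups. No library came from cells without MycER, so an effect of OHT itself and an effect of MycER activation cannot be told apart.

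The proteasome is the protease that degrades ubiquitin-tagged proteins. Its core particle is a barrel of alpha rings (PSMA genes) around beta rings (PSMB genes), and the cutting sites lie in the beta subunits PSMB5, PSMB6 and PSMB7. A regulatory particle caps the barrel: 6 ATPases (PSMC genes) unfold the substrate, and non-ATPase subunits (PSMD genes) bind and remove the ubiquitin chain. In cells exposed to interferon, PSMB8, PSMB9 and PSMB10 can replace PSMB5, PSMB6 and PSMB7, which gives the immunoproteasome and changes the peptides shown on MHC class I. The members were therefore read as 14 core, 20 regulatory and 3 immunoproteasome genes, plus 2 tissue-restricted ones, the testis subunit PSMA8 and the thymus subunit PSMB11.

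Values are in eRPKM, reads in exons scaled to the length of the gene and to the reads of the library. The number of reads behind each library, worked out from the steps in the values, was between 9647501 and 12678599. It differed between groups. At 24 h it was 12312403 and 12614504 in siRAD21, and 11626620 and 11061832 in siRAD21 OHT. At 48 h it was 10912005 and 10202656 in siRAD21, and 9653960 and 9818735 in siRAD21 OHT. In siCtrl at 48 h it was 9742318, 10010519 and 10786815, which overlaps siRAD21. The part of this difference in the results was not tested. RAD21 lay between 66.4 and 96.9 eRPKM in the 10 siCtrl and siCtrl OHT libraries and between 11.1 and 18.6 eRPKM in the 8 siRAD21 and siRAD21 OHT libraries, so every library matched its siRNA label. The osteoblast lineage markers SPARC (60.6 to 86.4 eRPKM) and COL1A1 were present, while COL1A2 and SP7 stayed under 0.5 eRPKM, as did the leukocyte markers PTPRC and CD3E, whereas LYZ, also on the leukocyte list, lay between 1.31 and 2.84 eRPKM. The epithelial marker KRT8 was also high, at 64.9 to 86.7 eRPKM. Between the 2 libraries of siRAD21 OHT at 48 h the spread was no larger than random sampling of reads alone would give. They could not be shown to be separate samples, so no SD is printed for this group. The fit still kept both as 2 samples, as designed, and every SE and adjusted p that uses this group rests on that. Values with the average of the 2 libraries in their place are given where they change a result for a subunit. For genes other than the subunits, and for the shares of all genes, results that use this group were not checked with the average. eRPKM is a share of the reads of a library, so less RNA per cell, or fewer cells of a kind, cannot be told apart from a lower share.

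Nearly all subunits were well expressed, and 37 of the 39 had a mean of at least 1 eRPKM over the 18 libraries and entered the tests. PSMA8 was listed at 0 in every library, and PSMB11 reached at most 0.206 eRPKM, or 4 reads. The highest mean levels were those of PSMD2 (98.4 eRPKM), a scaffold of the regulatory particle, the ATPase PSMC3 (88.3), and the core subunits PSMB4 (81.6), PSMA7 (81.0) and PSMB6 (80.2). Among the constitutive catalytic subunits, PSMB6 and PSMB5 (71.0 eRPKM) stood above PSMB7 (18.4 eRPKM). The deubiquitinase PSMD14 had a mean of 57.5 eRPKM and the ubiquitin receptor PSMD4 66.6 eRPKM. The lowest of the core genes was PSMA6, at 9.92 eRPKM. PSMB10 had a mean of 14.8 eRPKM, PSMB8 2.92 eRPKM and PSMB9 1.27 eRPKM.

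The other alpha subunits had means of 59.2 (PSMA3), 40.7 (PSMA1), 34.97 (PSMA4), 18.3 (PSMA5) and 13.99 (PSMA2) eRPKM. The other beta subunits had 76.5 (PSMB3), 20.8 (PSMB1) and 12.8 (PSMB2) eRPKM. The other ATPases, which form a single ring and are needed in equal number in the finished particle, had 63.1 (PSMC1), 60.7 (PSMC4), 39.3 (PSMC5), 35.3 (PSMC2) and 25.5 (PSMC6) eRPKM. Among the non-ATPases PSMD8 (69.5), PSMD3 (69.2), PSMD7 (68.6), PSMD1 (54.1) and PSMD13 (46.1) had the higher levels. PSMD11 (39.5), PSMD6 (34.2), PSMD12 (32.7), PSMD10 (23.9), PSMD5 (23.6) and PSMD9 (23.1) had the lower ones, so the 3 chaperones of the base (PSMD5, PSMD9 and PSMD10) had the lowest levels of the 20 regulatory genes.

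**Figure D1:**
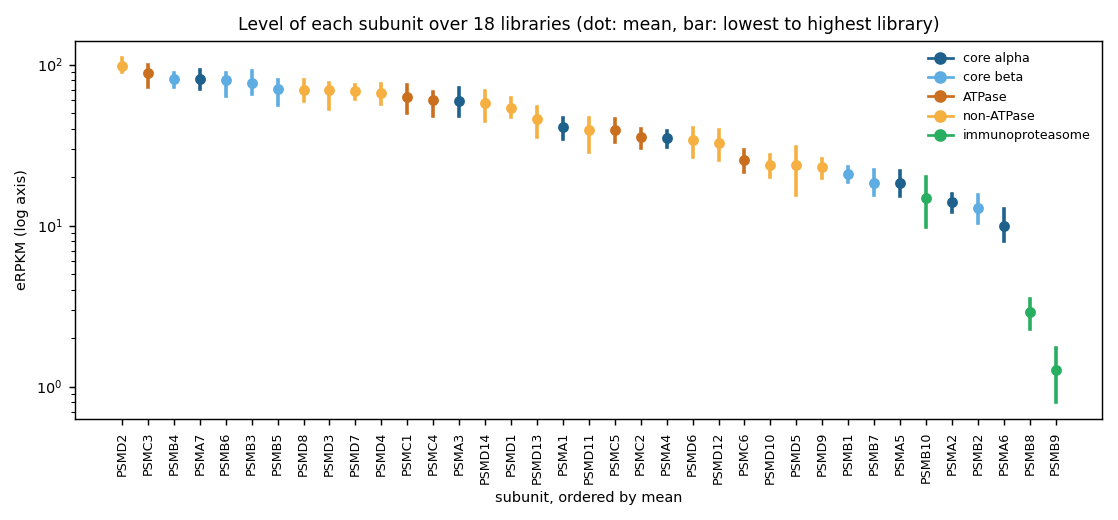
Level of the 37 tested subunits in eRPKM on a log axis, ordered by mean; dots are means over 18 libraries and bars run from the lowest to the highest library. Subunits of both particles spread from 98.4 (PSMD2) to 9.92 (PSMA6), and PSMB8 (2.92) and PSMB9 (1.27) lie below all others.

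Levels of different subunits can be set side by side only as far as the gene lengths behind eRPKM hold. The length that the deposited values imply was 19613 bases for PSMB8, 13313 for PSMB9 and 4784 for PSMB10, which is 17.4, 13.1 and 4.90 times the canonical GENCODE transcript, and for PSMB8 and PSMB10 longer than the whole locus (3963 and 2359 bases). PSMB1 (4.63 times), PSMA2 (3.65 times), PSMC6 (2.38 times), PSMB2 (2.24 times), PSMA1 (2.18 times) and PSMC5 (2.17 times) were also divided by long lengths. The levels per length of all these genes are therefore low in part by construction. Because 0.5 is added to eRPKM before the logarithm, a long length also makes the printed fold changes of a gene near 1 eRPKM, such as PSMB9, smaller. PSMC1 (0.363 times), PSMD12 (0.508 times) and PSMA4 (0.707 times) were divided by lengths shorter than the canonical transcript. The spread of levels among the ATPases, from PSMC1 to PSMC6, therefore rests in part on these lengths. In reads, PSMB8 had 460 to 827, PSMB9 110 to 285 and PSMB10 460 to 1112 per library. PSMB8 and PSMB9 also overlap each other and PSMB8-AS1, and the kit did not mark strand, so shared reads cannot be assigned. In the GENCODE annotation PSMC1 overlaps NRDE2 over 4667 bases, but its implied length was only 1595 bases, so not all of that overlap was counted. PSMC1 also has 13 pseudogenes named after it, which makes its counts uncertain.

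The first question was what loss of RAD21 did to the proteasome. At 48 h the tested members as a set were slightly lower in siRAD21 than in siCtrl. Of the 37, which include the 3 immunoproteasome genes, 36 had a negative log2 fold change, with a median of -0.22, a ratio of 0.859. All 14 core and all 20 regulatory genes, the latter with the base chaperones, had negative values. At an adjusted p below 0.05 without a fold threshold, 29 members fell and 0 rose, against 30.5% of all 14993 tested genes that fell and 27.2% that rose. Members that fell were thus 78.4% of those tested. Highly expressed genes as a class also tended downwards in this comparison: of the 5376 genes with a mean of at least 20 eRPKM, 45.7% fell and 18.3% rose, with a median of -0.12, and of the 29 members in that class 25 fell. The change was small for each gene. When a log2 fold change past 0.5 was also required, which is the rule for a call here, only PSMD5 was called, against 23.7% of all tested genes in either direction. In 31 members every siRAD21 library lay below every siCtrl library, which held for 36.7% of all genes.

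Both particles were lower. Of the core genes 11 of 14 fell (median -0.20), among them 5 of 7 alpha and 6 of 7 beta subunits, and of the regulatory genes 18 of 20 fell (median -0.25), among them all 6 ATPases and 12 of 14 non-ATPases. The largest falls after PSMD5 were those of the catalytic subunit PSMB6 (-0.36 ± 0.06 SE, adjusted p = 9.71e-05) and of the lid scaffold PSMD3 (-0.33 ± 0.05 SE, adjusted p = 9.46e-05). PSMB6 stood at 81.7, 84.2 and 82.0 eRPKM in the siCtrl libraries and at 64.1 and 64.7 eRPKM in the siRAD21 libraries. The groups did not overlap. PSMD14 fell from 57.6 ± 2.81 (SD, n = 3) to 46.5 ± 2.72 (SD, n = 2) eRPKM. At the other end were PSMB1 (-0.01) and PSMD10 (-0.02), whose libraries overlapped, and PSMB8 (0.20 ± 0.10 SE, adjusted p = 0.0885). None of the 3 immunoproteasome genes passed the test in this comparison.

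The count of members that fell rested in part on 1 library: without siRAD21 48h replicate 1 it was 14, with a median of -0.17. Quantile normalization left the direction of the family in place and made it smaller, with a median of -0.15 and 25 members that fell and 1 that rose.

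**Figure D2:**
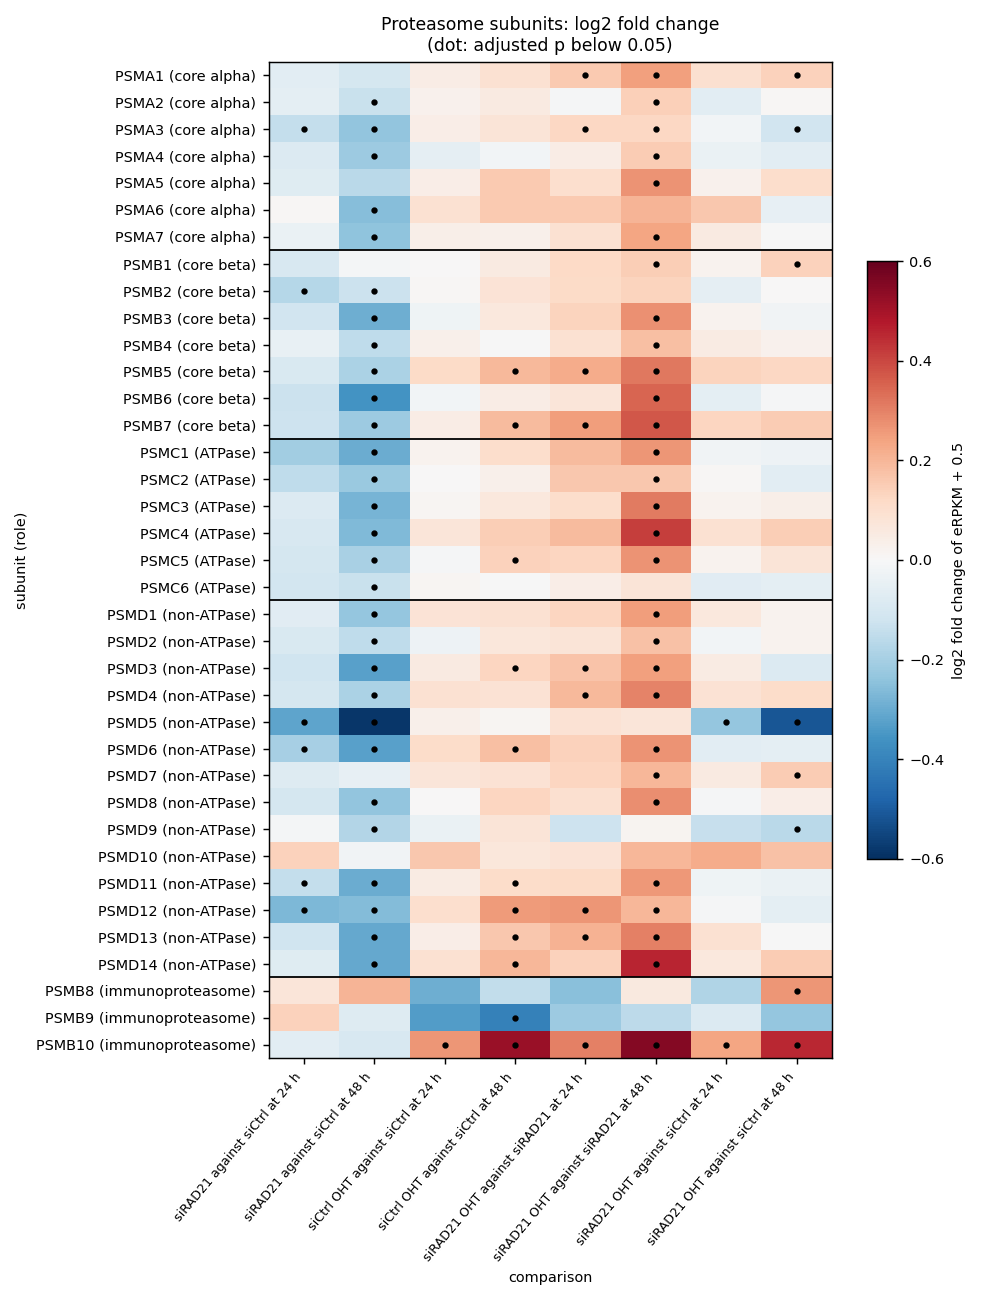
Log2 fold change of eRPKM + 0.5 for 37 subunits (rows, grouped by role) in 8 comparisons (columns); a dot marks an adjusted p below 0.05. The siRAD21 column at 48 h is negative in 36 rows, the siRAD21 OHT against siRAD21 column at 48 h is positive in 36 rows, and PSMD5 and PSMB10 depart from their neighbours.

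At 24 h the same comparison gave a median of -0.10. No member was called, against 8.43% of all genes; 9 members had an unadjusted p below 0.05, and voom on the recovered reads called 0 as well. Without the fold threshold 6 members fell (11.8% of all genes did) and 0 rose (14.0% did): PSMD5, PSMD12, PSMD6, PSMD11, PSMB2 and PSMA3. Of the genes with a mean of at least 20 eRPKM, 18% fell and 9.41% rose, and 5 of the 29 members in that class fell. The falls of PSMD5 and of PSMD12 (-0.27 ± 0.05 SE, adjusted p = 0.00203) were the largest, and the highest values were those of PSMD10 (0.14) and PSMB9 (0.14), which did not pass the test. The count of 6 members that fell rested on single libraries. It was 2 without siCtrl 24h replicate 1 or without siRAD21 24h replicate 2, 3 without siRAD21 24h replicate 1, and 12 without siCtrl 24h replicate 2. The effect of siRAD21 at 48 h minus that at 24 h was called for no member, against 10.7% of all genes, and 8 members had an unadjusted p below 0.05. At an adjusted p below 0.05 without the fold threshold, 1 member, PSMD5, fell further with time, against 13.5% of all genes. PSMA6 (-0.26, adjusted p = 0.172) and PSMD14 (-0.23, adjusted p = 0.101) came next, and PSMB8 (0.13) was at the other end. That count was 0 without siCtrl 24h replicate 2 or siRAD21 24h replicate 1, 9 without siCtrl 24h replicate 1, and 2 without siRAD21 48h replicate 2 or either siCtrl OHT 24h replicate.

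PSMD5 is a chaperone that helps to build the base of the regulatory particle and is not part of the finished proteasome. It lies on the minus strand of chromosome 9 at chr9:123577774-123605229 (GRCh37). At 24 h it had 29.5 and 29.4 eRPKM in siCtrl, 30.7 and 29.5 in siCtrl OHT, 23.9 and 23.2 in siRAD21, and 24.9 and 25.1 in siRAD21 OHT. At 48 h it had 23.7, 24.1 and 24.0 eRPKM in siCtrl, 22.6, 23.7 and 26.2 in siCtrl OHT, 16.0 and 15.5 in siRAD21, and 16.6 and 16.6 in siRAD21 OHT. At each time all libraries with siRAD21 lay below all libraries with siCtrl, with OHT or without. The log2 fold change of siRAD21 against siCtrl was -0.32 ± 0.06 (SE) at 24 h (adjusted p = 0.000707) and -0.59 ± 0.05 (SE) at 48 h (adjusted p = 2.76e-07). The effect at 48 h minus that at 24 h was -0.27 ± 0.07 (SE, adjusted p = 0.0202). With OHT at 48 h its log2 fold change was 0.01 in siCtrl cells (adjusted p = 0.859) and 0.07 in siRAD21 cells (adjusted p = 0.271), and the siRNA by OHT interaction was 0.06 (adjusted p = 0.591). The other base chaperones among the members, PSMD9 and PSMD10, had -0.18 and -0.02 in siRAD21 at 48 h, and PAAF1, a chaperone of the same step, had 0.18 ± 0.07 (SE, adjusted p = 0.0393).

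**Figure D3:**
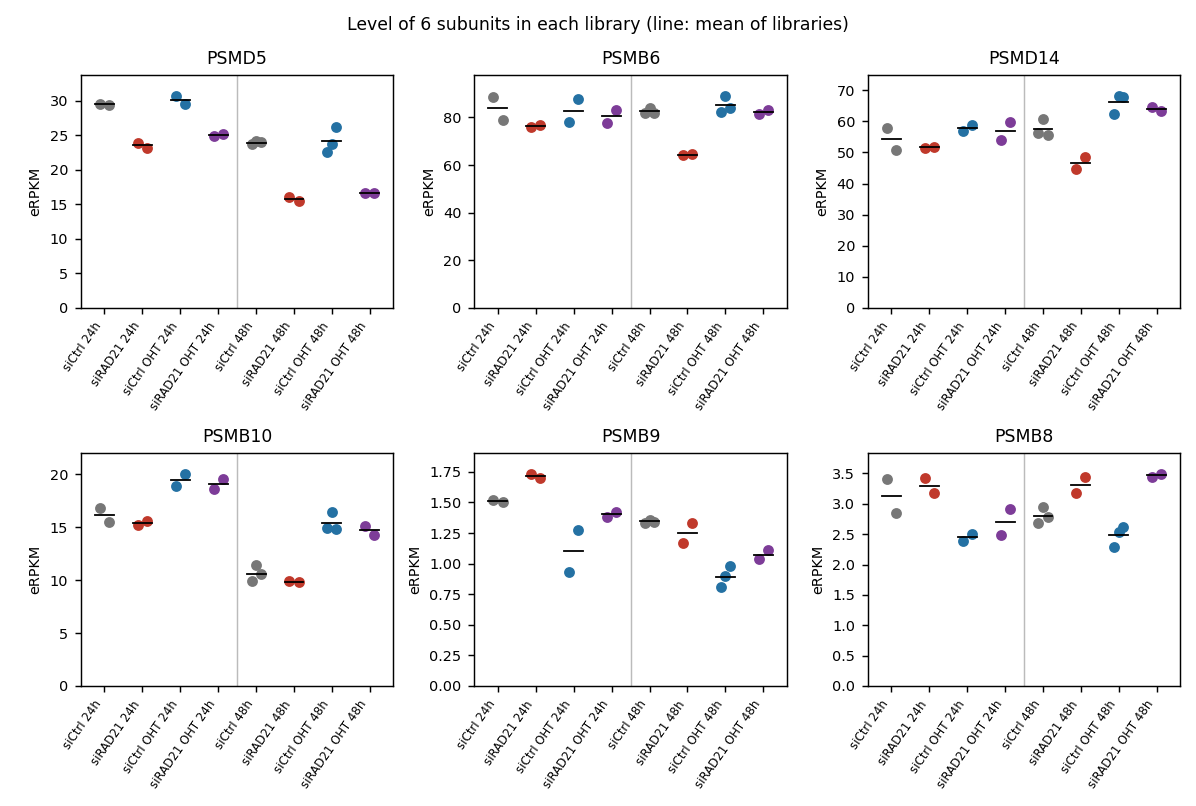
Level in eRPKM of 6 subunits in each library, grouped by siRNA, OHT and time (24 h left of the grey line, 48 h right of it); black lines are means of libraries. PSMD5 is lower with siRAD21 whether OHT was given or not, PSMB6 and PSMD14 are low in siRAD21 at 48 h (means 64.4 and 46.5) but not in siRAD21 OHT, and PSMB10 is higher with OHT.

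The next question was what MycER activation did in cells with RAD21. In siCtrl cells the proteasome moved little. At 24 h the median log2 fold change of siCtrl OHT against siCtrl was 0.03 and no member was called (8.78% of all genes were); 3 members had an unadjusted p below 0.05, and voom called 0. Without the fold threshold PSMB10 rose (0.26 ± 0.07 SE, adjusted p = 0.0128) and no member fell, against 12.5% and 14.0% of all genes. PSMB9 (-0.34, adjusted p = 0.0647) and PSMB8 (-0.29, adjusted p = 0.0584) had the lowest values. Without siCtrl 24h replicate 2 or siCtrl OHT 24h replicate 2 no member rose and 1 fell. The median turned to -0.02 without siCtrl 24h replicate 2, and to 0.10 without siCtrl 24h replicate 1. At 48 h the median was 0.08, and 10 members rose and 1 fell, against 26.1% and 27.2% of all genes. The share that rose was close to that of all genes. Of the genes with a mean of at least 20 eRPKM, 38.7% rose and 18.5% fell, and 8 of the 29 members in that class rose. Besides PSMB10, the members that rose were PSMB5, PSMB7, PSMC5, PSMD3, PSMD6, PSMD11, PSMD12, PSMD13 and PSMD14. Thus 7 of the 10 belonged to the regulatory particle, which holds 20 of the 37 tested members. PSMD12, a lid scaffold, had the largest of these changes (0.26 ± 0.04 SE, adjusted p = 0.000201), from 32.5 ± 0.572 to 38.9 ± 0.539 eRPKM (SD, n = 3 each). PSMA4, a core subunit, had -0.02 (adjusted p = 0.772). The number of members that rose was 5 without siCtrl 48h replicate 1 or without siCtrl OHT 48h replicate 2, 6 without siCtrl OHT 48h replicate 3, and 18 without siCtrl OHT 48h replicate 1. With quantile normalization it was 5, with 3 members lower and a median of 0.01.

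PSMB10 was the one member called for OHT in siCtrl cells at 48 h, where 17.9% of all genes were called. It encodes the trypsin-like catalytic subunit of the immunoproteasome and lies on the minus strand at chr16:67968409-67970767 (GRCh37). At 48 h it had 9.87, 11.4 and 10.5 eRPKM in siCtrl and 14.96, 16.4 and 14.8 eRPKM in siCtrl OHT. In siRAD21 it had 9.90 and 9.81 eRPKM, and in siRAD21 OHT 15.1 and 14.3 eRPKM. The OHT libraries did not overlap the ethanol libraries. At 24 h the values were 16.8 and 15.5 eRPKM in siCtrl, 18.9 and 20.01 in siCtrl OHT, 15.2 and 15.5 in siRAD21, and 18.6 and 19.5 in siRAD21 OHT, so the same order held at a higher level. The log2 fold change for OHT at 48 h was 0.52 ± 0.06 (SE, adjusted p = 4.36e-06) in siCtrl cells and 0.55 ± 0.07 (SE, adjusted p = 1.28e-05) in siRAD21 cells, and the interaction was 0.04 ± 0.09 (SE, adjusted p = 0.827). The difference between times in siCtrl cells was 0.25 ± 0.09 (SE, adjusted p = 0.142). The call in siCtrl cells sat at the fold threshold: the log2 fold change was 0.47 to 0.62 over 33 alternatives, of which 30 called it, and it was lost with a pseudocount of 1, without siCtrl 48h replicate 1 and without siCtrl OHT 48h replicate 2.

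The other immunoproteasome subunits did not follow PSMB10. PSMB9 had 1.33, 1.36 and 1.34 eRPKM in siCtrl at 48 h and 0.807, 0.895 and 0.983 in siCtrl OHT, a log2 fold change of -0.41 ± 0.10 (SE, adjusted p = 0.00429). At this low level the value depended on the pseudocount: it was -0.31 with a pseudocount of 1, -0.54 with 0.1 and -0.59 with voom on the recovered reads, and the last 2 passed the fold threshold. In siRAD21 cells the change with OHT at 48 h was -0.15 ± 0.13 (SE, adjusted p = 0.306), from 1.17 and 1.33 to 1.03 and 1.11 eRPKM. The difference between these effects was 0.25 ± 0.16 (SE, adjusted p = 0.316). PSMB8 had 2.68, 2.95 and 2.78 eRPKM in siCtrl at 48 h, 2.29, 2.54 and 2.61 in siCtrl OHT, 3.18 and 3.44 in siRAD21, and 3.45 and 3.49 in siRAD21 OHT. Its siRAD21 libraries at 48 h all lay above its siCtrl ones. The log2 fold change of siRAD21 OHT against siCtrl at 48 h was 0.26 ± 0.10 (SE, adjusted p = 0.0312), and the adjusted p was 0.111 with the siRAD21 OHT libraries averaged.

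Because each inducible subunit takes the place of 1 constitutive subunit, the pairs were also set against each other within each library, as a description that carries the lengths above. PSMB10 was 57.5 to 58.5% of PSMB7 in siCtrl at 48 h, 66.8 to 77.7% in siCtrl OHT, 62.2 to 64.0% in siRAD21 and 71.3 to 72.7% in siRAD21 OHT. PSMB9 was 1.61 to 1.64% of PSMB6 in siCtrl, 0.978 to 1.17% in siCtrl OHT, 1.825 to 2.06% in siRAD21 and 1.27 to 1.33% in siRAD21 OHT. PSMB8 was 3.901 to 4.16% of PSMB5 in siCtrl, 3.015 to 3.255% in siCtrl OHT, 5.35 to 5.63% in siRAD21 and 4.61 to 4.62% in siRAD21 OHT. All 3 shares were thus higher in siRAD21 than in siCtrl, and with OHT the share of PSMB10 was higher and those of PSMB9 and PSMB8 were lower, with either siRNA. A share also moves with its constitutive partner. From siCtrl to siRAD21 mean PSMB10 (10.6 to 9.86 eRPKM) and PSMB9 (1.345 to 1.251) did not rise. Their partners PSMB7 (18.3 to 15.6 eRPKM) and PSMB6 (82.6 to 64.4) were lower. With OHT in siRAD21 cells mean PSMB8 did not fall (3.31 to 3.47 eRPKM), while PSMB5 was higher (60.4 to 75.15).

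Upstream sequence is shown for the called genes PSMD5 and PSMB10, for PSMB9, which moved against PSMB10 with OHT, and for PSMB3, a core subunit whose upstream bases hold the Myc motif. The 250 bases before the start are RefSeq's (table of GRCh38.p14), matched exactly to GRCh37, and are given 5′ to 3′ on the strand of the gene. Capitals mark matches, on either strand, of the E-box bound by Myc (CACGTG), the antioxidant response element bound by NRF1 and NRF2 (TGACNNNGC) and an interferon-stimulated response element (GAAANNGAA). No marked matches overlap in these sequences.
PSMD5, minus strand, chr9:123605201-123605450: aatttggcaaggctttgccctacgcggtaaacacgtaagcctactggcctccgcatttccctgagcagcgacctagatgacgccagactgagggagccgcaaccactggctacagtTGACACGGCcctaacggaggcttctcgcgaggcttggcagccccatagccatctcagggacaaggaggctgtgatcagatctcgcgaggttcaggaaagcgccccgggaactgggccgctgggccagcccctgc
PSMB10, minus strand, chr16:67970754-67971003: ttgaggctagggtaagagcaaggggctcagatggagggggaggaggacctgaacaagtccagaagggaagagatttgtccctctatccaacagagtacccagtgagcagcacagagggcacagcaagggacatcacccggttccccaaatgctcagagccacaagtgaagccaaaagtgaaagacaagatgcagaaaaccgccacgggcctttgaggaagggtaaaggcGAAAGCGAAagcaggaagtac
PSMB9, plus strand, chr6:32821719-32821968: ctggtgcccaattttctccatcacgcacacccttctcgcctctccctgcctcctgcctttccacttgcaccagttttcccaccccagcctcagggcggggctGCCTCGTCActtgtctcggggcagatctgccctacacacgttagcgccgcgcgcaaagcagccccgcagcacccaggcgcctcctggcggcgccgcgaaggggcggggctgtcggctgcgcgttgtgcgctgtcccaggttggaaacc
PSMB3, plus strand, chr17:36908744-36908993: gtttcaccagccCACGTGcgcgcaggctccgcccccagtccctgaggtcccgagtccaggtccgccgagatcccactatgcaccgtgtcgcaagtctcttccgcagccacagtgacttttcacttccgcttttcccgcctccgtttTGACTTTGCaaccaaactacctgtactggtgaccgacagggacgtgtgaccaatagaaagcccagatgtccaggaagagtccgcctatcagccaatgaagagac

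Of the 39 members 34 had an entry in the promoter table. CACGTG was present in 2 of them (PSMB3 and PSMD9), 5.88%, against 6.49% of 27305 promoters. TGACNNNGC was present in 6, 17.6% against 11.0% of all promoters, namely PSMB3, PSMB9, PSMD3, PSMD5, PSMD9 and PSMD12. GAAANNGAA was present in 3 (PSMA4, PSMB4 and PSMB10), 8.82% against 7.06%, and CCAAT, which is not capitalised above, in 16, 47.1% against 33.0%. These matches describe letters in the window and no binding was measured. For the members with CACGTG the log2 fold change in siRAD21 at 48 h was -0.29 (PSMB3) and -0.18 (PSMD9), and with OHT in siCtrl cells at 48 h 0.06 and 0.08. All 6 members with TGACNNNGC had negative values in siRAD21 at 48 h, as did 36 of the 37 tested members.

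The third question was what MycER activation did when RAD21 was depleted. There OHT raised most of the particle. At 48 h 36 of the 37 members had a positive log2 fold change of siRAD21 OHT against siRAD21, with a median of 0.24, a ratio of 1.18. Without the fold threshold 29 members rose and 0 fell, against 30.5% and 29.9% of all genes. Only PSMB10 was called with the fold threshold, against 28.6% of all genes. Highly expressed genes as a class also tended upwards, since 50.6% of the genes with at least 20 eRPKM rose and 17.5% fell, with a median of 0.16, and 25 of the 29 members in that class rose. In 35 members the siRAD21 OHT libraries lay above both siRAD21 libraries, which held for 40.7% of all genes. These siRAD21 libraries are the same ones that stood below siCtrl, so the falls described above and the rises here share samples and are not independent of each other.

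Of the core genes 12 of 14 rose (median 0.22), of the regulatory genes 16 of 20 (median 0.26), with 5 of 6 ATPases and 11 of 14 non-ATPases. The largest rises after PSMB10 were those of PSMD14 (0.46 ± 0.07 SE, adjusted p = 7.65e-05) and the ATPase PSMC4 (0.41 ± 0.07 SE, adjusted p = 0.000235). PSMD14 had 44.6 and 48.4 eRPKM in siRAD21 and 64.5 and 63.5 eRPKM in siRAD21 OHT. PSMC4 had 47.6 and 51.1 eRPKM and then 65.4 and 66.4 eRPKM. All 3 catalytic subunits rose, PSMB7 by 0.37, PSMB6 by 0.35 and PSMB5 by 0.32 on the log2 scale. PSMD9 (0.02), PSMD5 (0.07) and PSMC6 (0.08) were among those that did not pass the test. Averaging the siRAD21 OHT libraries left 23 members that rose, and 18 rose without siRAD21 48h replicate 1. With quantile normalization 16 rose and the median was 0.09.

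At 24 h the median was 0.12, and no member was called, against 11.9% of all genes; 17 members had an unadjusted p below 0.05, and voom called 0. Without the fold threshold 9 members rose (16.9% of all genes did) and 0 fell (18.2% did). They were PSMA1, PSMA3, PSMB5, PSMB7, PSMB10, PSMD3, PSMD4, PSMD12 and PSMD13. Of the genes with a mean of at least 20 eRPKM, 26.9% rose and 11.5% fell, and 7 of the 29 members in that class rose. The largest changes were those of PSMB10 (0.30 ± 0.07 SE, adjusted p = 0.00443), PSMD12 (0.26 ± 0.05 SE, adjusted p = 0.00176) and PSMB7 (0.25 ± 0.07 SE, adjusted p = 0.0129), while PSMB8 (-0.25, adjusted p = 0.0867) was lowest. The count of 9 became 2 without siRAD21 24h replicate 2 or without siRAD21 OHT 24h replicate 2, 4 without siRAD21 24h replicate 1, and 15 without siRAD21 OHT 24h replicate 1. Quantile normalization gave 5 and a median of 0.05.

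Whether the OHT effect differed between siRAD21 and siCtrl cells was tested as an interaction. At 48 h no member was called, against 7.3% of all genes, with 10 members at an unadjusted p below 0.05 and 0 called by voom. At an adjusted p below 0.05 without the fold threshold 1 member, PSMB6, had a higher OHT effect in siRAD21 cells, against 10.0% of all genes. Its interaction was 0.31 ± 0.08 (SE, adjusted p = 0.0177): OHT changed PSMB6 by 0.04 in siCtrl cells, where it had 82.5, 89.2 and 84.0 eRPKM, and by 0.35 in siRAD21 cells, where it had 81.4 and 83.2 eRPKM. With the siRAD21 OHT libraries averaged the adjusted p was 0.0609. The count of 1 was 0 without siRAD21 48h replicate 1 or either siRAD21 OHT 48h replicate, 2 without siCtrl OHT 48h replicate 2, and 6 without either siCtrl 24h replicate. The next were PSMC4 (0.27, adjusted p = 0.0675) and PSMD14 (0.26, adjusted p = 0.0662), and the median over members was 0.13, against 0.09 over the highly expressed genes. At 24 h the interaction called no member and 0.0% of all genes, no member had an unadjusted p below 0.05, and voom called 0. The values ran from -0.08 (PSMD9) to 0.21 (PSMB7). The OHT effect in siCtrl cells at 48 h minus that at 24 h called no member either, against 1.77% of all genes, with 2 members at an unadjusted p below 0.05 and 0 called by voom. The values ran from -0.09 (PSMD10) to 0.25 (PSMB10).

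**Figure D4:**
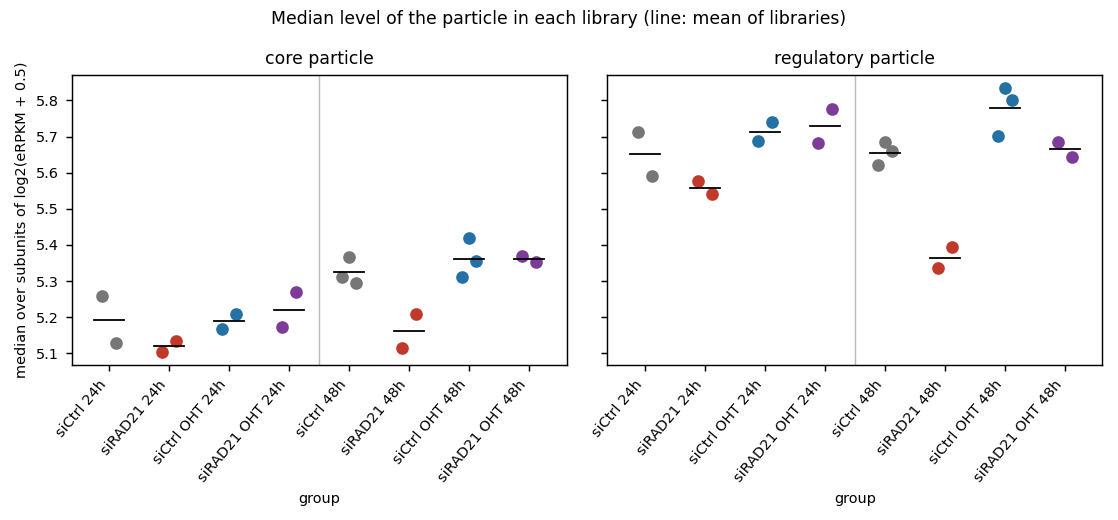
Median over the 14 core (left) and 20 regulatory (right) subunits of log2(eRPKM + 0.5) in each library; the y axis does not start at 0, and black lines are means of libraries. At 48 h the siRAD21 libraries (core 5.12 and 5.21, regulatory 5.34 and 5.39) lie below those of the other 3 groups in both panels.

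Set directly against siCtrl, siRAD21 OHT left the proteasome near the control level. At 48 h the median log2 fold change was 0.01, with 20 members positive and 17 negative; 5 rose and 3 fell without the fold threshold, against 29.7% and 30.0% of all genes, and only PSMD5 was called (-0.51 ± 0.05 SE, adjusted p = 7.58e-07), against 28.0% of all genes. The members that rose were PSMA1, PSMB1, PSMB8, PSMB10 and PSMD7, and those that fell were PSMA3, PSMD5 and PSMD9. PSMB10 was higher by 0.45 ± 0.06 (SE, adjusted p = 2.76e-05). With the siRAD21 OHT libraries averaged, 1 member rose and 1 fell. The number that rose was 1 without siCtrl 48h replicate 3 or either siRAD21 OHT 48h replicate, 2 without siCtrl 48h replicate 1, and 9 without siCtrl OHT 48h replicate 1, and the number that fell was 1 without siRAD21 OHT 48h replicate 1. The call of PSMD5 was lost when libraries were centred on their median and with the replicate block. Quantile normalization turned the median to -0.05, with 5 members higher and 12 lower. At 24 h the median was 0.02 (-0.01 with quantile normalization) and no member was called, against 13.1% of all genes; 3 members had an unadjusted p below 0.05, and voom called 0. The values ran from -0.23 ± 0.06 (SE) for PSMD5 (adjusted p = 0.00468) to 0.24 ± 0.07 (SE) for PSMB10 (adjusted p = 0.0175).

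The medians over each particle showed the same picture in single libraries at 48 h. On the scale of log2(eRPKM + 0.5), the regulatory median was 5.62 to 5.69 in siCtrl, 5.34 to 5.39 in siRAD21, 5.70 to 5.84 in siCtrl OHT and 5.64 to 5.69 in siRAD21 OHT. The core median was 5.30 to 5.37, 5.12 to 5.21, 5.31 to 5.42 and 5.35 to 5.37 in the same groups. The core median minus the regulatory median was -0.36 to -0.31 in siCtrl, -0.22 to -0.18 in siRAD21, -0.44 to -0.39 in siCtrl OHT and -0.32 to -0.29 in siRAD21 OHT. The siRAD21 libraries did not overlap the others in this difference. It is a description, and no test was made of it. Each median rests on the genes in the middle of the order of levels, which were not the same in all libraries. Gene by gene, the median log2 fold change of siRAD21 against siCtrl at 48 h was -0.20 for core and -0.25 for regulatory genes.

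Several of the genes that work with the proteasome moved further than its subunits. Among 6 assembly chaperones, PSMG1, which with PSMG2 helps to start the alpha ring, was 16.4, 19.9 and 20.005 eRPKM in siCtrl at 48 h, 13.5 and 12.6 in siRAD21, 35.3, 38.7 and 42.0 in siCtrl OHT, and 38.8 and 37.8 in siRAD21 OHT. Its log2 fold change was -0.50 ± 0.10 (SE) for siRAD21, 1.03 ± 0.09 (SE) for OHT in siCtrl cells and 1.52 ± 0.11 (SE) for OHT in siRAD21 cells, and the interaction was 0.49 (adjusted p = 0.0259). PSMG4 rose by 0.684 and 1.083 with OHT in siCtrl and siRAD21 cells. Without the fold threshold 3 of the 6 chaperones fell and 1 rose in siRAD21, 3 rose with OHT in siCtrl cells, and 5 rose with OHT in siRAD21 cells, all at 48 h. Of all genes, 30.5% fell and 27.2% rose in siRAD21, 26.1% rose and 27.2% fell with OHT in siCtrl cells, and 30.5% rose and 29.9% fell with OHT in siRAD21 cells, and the counts of the lists that follow stand against these shares. PSMG1 and PSMG4 were called for OHT in both. Of the 5 activators and inhibitors, PSME3, the nuclear activator, fell by 0.38 in siRAD21 and rose by 0.31 and 0.48 with OHT, while 2 of the 5 fell and 1 rose in siRAD21 and no gene of the list was called.

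Of 10 associated receptors and enzymes, 2 fell in siRAD21 at 48 h, which is below the 30.5% of all genes, 6 rose and 1 fell with OHT in siCtrl cells, and 7 rose and 1 fell with OHT in siRAD21 cells, where the ligase UBE3C was called higher (0.55) and the shuttle receptor UBQLN2 lower (-0.53). Of 5 genes of the NRF1 axis, which activates subunit genes when the proteasome is inhibited, 3 rose in siRAD21 at 48 h and 1 rose with OHT in each background. DDI2, the protease that processes NRF1, was called with OHT in siCtrl cells (0.78 ± 0.11 SE, adjusted p = 4.32e-05) and in siRAD21 cells (0.63 ± 0.14 SE, adjusted p = 0.00114). NFE2L1, the gene of NRF1 itself, had -0.08 and -0.06 with OHT in siCtrl and siRAD21 cells. In siRAD21 at 48 h it stood at 58.7 and 59.9 eRPKM, against 56.3, 51.2 and 53.7 in siCtrl. The list also held NFE2L2, the gene of NRF2. Of the 4 ubiquitin precursor genes none changed in siRAD21, 1 rose with OHT in siCtrl cells and 2 rose in siRAD21 cells. MYC, whose reads cannot be told apart from those of the transgene, had 0.12 in siRAD21 at 48 h (adjusted p = 0.109). There it stood at 57.5 and 56.4 eRPKM, against 54.6, 49.9 and 52.3 in siCtrl. With OHT at 48 h it stood at 49.4, 43.3 and 41.95 eRPKM in siCtrl OHT and 36.0 and 32.9 in siRAD21 OHT. At 24 h it was 44.8 and 44.6 eRPKM in siRAD21 and 55.2 and 51.7 in siCtrl. The paper reported that RAD21 silencing lowered Myc mRNA by RT-PCR and endogenous Myc protein by western blot.

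Genes of antigen presentation and of the interferon response were counted in the same way. Of 11 antigen presentation genes, 5 rose and 1 fell in siRAD21 at 48 h, 3 rose and 4 fell with OHT in siCtrl cells, and 3 rose and 3 fell with OHT in siRAD21 cells. The counts with OHT are near the 26.1 to 30.5% of all genes in each direction. In siRAD21 the peptide transporter TAP1 (0.60 ± 0.08 SE, adjusted p = 2.73e-05) and the trimming enzyme ERAP1 (0.84 ± 0.07 SE, adjusted p = 2.09e-07) were called higher. NLRC5, the transactivator of MHC class I genes, was called lower in siRAD21 (-0.66 ± 0.09 SE) and higher with OHT in siCtrl (0.58 ± 0.08 SE) and in siRAD21 cells (0.91 ± 0.09 SE). Of the 12 interferon response genes 9 were tested; 2 rose and 2 fell in siRAD21 at 48 h, 1 rose and 6 fell with OHT in siCtrl cells, and 4 fell with OHT in siRAD21 cells. The counts in siRAD21 are near the 27.2% and 30.5% of all genes. The risers in siRAD21 were IFIT2 (2.08) and IFIT3 (1.89). IRF9 was listed at 0 in every library.

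Markers of cell type moved with OHT as well. Of 3 epithelial markers EPCAM alone was called, from 4.24, 5.06 and 4.64 eRPKM in siCtrl at 48 h to 10.3, 11.2 and 12.9 eRPKM in siCtrl OHT (1.22 ± 0.13 SE, adjusted p = 2.51e-06) and by 1.05 ± 0.16 (SE) in siRAD21 cells. The 3 markers summed to 84.8 to 90.8 eRPKM in siCtrl, 90.4 to 99.3 in siCtrl OHT, 76.9 to 80.4 in siRAD21 and 74.9 to 75.9 in siRAD21 OHT. Of 8 osteoblast lineage markers 5 were tested and 3 were called lower with OHT in each background. The sum of the 8 was 129.8 to 161.4 eRPKM in siCtrl, 94.2 to 116.4 in siCtrl OHT, 167.1 to 171.8 in siRAD21 and 103.8 to 104.2 in siRAD21 OHT. It was made up mostly of SPARC and COL1A1, and COL1A1 alone ran from 28.1 to 59.1 eRPKM within siCtrl at 48 h. In siRAD21 at 48 h 0 of the 5 tested markers were called, and without the fold threshold 1 rose and 1 fell. The part of these markers in the results for the proteasome was not tested.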

How the data were processed

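RNA was sequenced with 50 bp reads (Illumina HiSeq) from 18 libraries. The deposited values are eRPKM (RPKM over exons): per the authors' methods and processing notes, quality-trimmed reads were aligned to hg19 with TopHat2 (2.0.8), duplicates were removed, and reads were counted with featureCounts (1.4.5). Libraries were grouped by their labels. Reads, lengths and library totals were recovered from the steps of the values; 92.2% of the 23399 genes gave whole reads in every library (tolerance 0.02 reads), the others being 0 in all or all but 1 library. Removing duplicates limits a gene to 2 reads per base, which understates differences of high genes; PSMD2 reached 58.8% of that limit on the recovered lengths, and on the lengths of canonical transcripts PSMB4 reached 73.0%, PSMB5 61.5% and PSMD2 61.1%.

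log2(eRPKM + 0.5) of the 14993 genes with a mean of at least 1 was fitted with limma (3.58.1, R 4.3.3; moderated test with a variance trend) over all 18 libraries with a mean per group, and p-values were adjusted by Benjamini-Hochberg within each of 12 comparisons. A gene was called at an adjusted p below 0.05 and an absolute log2 fold change past 0.5, the threshold of the authors. Fold changes are on the log2(eRPKM + 0.5) scale and understate low genes. The naming rule was the level of every member, the fold changes of called members and of the 3 highest and 3 lowest in each comparison, and RAD21, MYC, the catalytic and immunoproteasome subunits, PSMB11, PSMA8, PSMD14 and PSMD4; other genes were picked after seeing values, as were the members of the lists that are named. Alternatives changed the pseudocount, filter, scaling, groups fitted, block, variance model, test (voom on recovered reads) and libraries. Members and lists were chosen with earlier results of these data known. The labels do not say that libraries came from separate cultures, so p-values measure the spread between these libraries; the authors' methods speak of biological replicates.

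At 48 h the deviations of siCtrl and siCtrl OHT correlated weakly within each replicate number (0.258, 0.130 and 0.157), and no other groups with 3 pairs exist. For siRAD21 at 48 h the values were of similar size with siCtrl OHT (0.169 and 0.111) and with siCtrl (0.0990 and 0.146). Only equal replicate numbers were compared, and the labels state no pairing, so a pairing by replicate number is not established. The main fit used no pairing. Figures were drawn with matplotlib (3.10.9). The script for the tests was tested on simulated data.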

Additional observations from a re-analysis of the deposited data

Results flagged for a closer look

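The OHT effect on PSMB6 at 48 h differed between siRAD21 and siCtrl cells by 0.31 on the log2 scale (value 0.306, limma adjusted p = 0.0177). Over 33 alternatives this difference ran from 0.18 to 0.38 and its adjusted p from 0.0027 to 0.068. The effect of siRAD21 on PSMD5 differed between 48 h and 24 h by -0.27 (value -0.268, limma adjusted p = 0.0202), with a range of -0.29 to -0.24 over 33 alternatives and adjusted p from 0.00367 to 0.0818. Neither difference reached a log2 fold change of 0.5.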

How the results depend on the processing

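Calls are those of limma with the fold threshold of 0.5 (log2). Without the fold threshold the counts were 6 and 29 for siRAD21 at 24 and 48 h, 1 and 11 for OHT in siCtrl cells, 9 and 29 for OHT in siRAD21 cells, 2 and 8 for siRAD21 OHT against siCtrl, 1 for the interaction at 48 h and 1 for the siRAD21 effect at 48 h minus 24 h. With a log2 fold change past 1 they were 0 in the 4 comparisons at 48 h that had 1. For OHT in siCtrl cells at 48 h the count of 1 became 0 with a pseudocount of 1, and 2 with a pseudocount of 0.1 and with voom on recovered reads. For siRAD21 OHT against siCtrl at 48 h it became 0 with median centring. Undoing the removal of duplicates, added after seeing the data, gave 2 for OHT in siRAD21 cells at 48 h, on deposited and canonical lengths, and 2 for siRAD21 OHT against siCtrl at 48 h on canonical lengths. The replicate block, as a fit with pairing, changed the count for siRAD21 OHT against siCtrl at 48 h from 1 to 0, changed no other count of calls, and turned PSMD10 for siRAD21 at 48 h to 0.00464. Crossing the siCtrl 24h numbers (their correlations with siCtrl OHT 24h and siRAD21 OHT 24h were -0.134 and -0.169), added after seeing the data, gave the same 0 and 0.00464.

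Quantile normalization moved the median log2 fold change to -0.148 for siRAD21 at 48 h, 0.0137 for OHT in siCtrl cells at 48 h, 0.0523 and 0.0910 for OHT in siRAD21 cells at 24 and 48 h, and -0.0487 for siRAD21 OHT against siCtrl at 48 h. It reversed PSMB8 (-0.0676) and PSMB9 (-0.0196) for siRAD21 at 24 h, PSMD10 (0.0156) and PSMB1 (0.0195) for siRAD21 at 48 h, and PSMB9 (0.0153) and PSMD9 (-0.0304) for OHT in siRAD21 cells at 48 h. Median centring reversed PSMA4 for OHT in siCtrl cells at 48 h (0.0155), and undoing duplicates on canonical lengths reversed PSMB1 for siRAD21 at 48 h (0.00984). The cause was not tested.

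Leaving out 1 library at a time gave medians of -0.165 to -0.0216 for siRAD21 at 24 h, -0.0234 to 0.0955 for OHT in siCtrl cells at 24 h, -0.0409 to 0.0931 for siRAD21 OHT against siCtrl at 24 h, 0.0304 to 0.157 for the interaction at 24 h, -0.175 to -0.0543 for the siRAD21 effect at 48 h minus 24 h, and -0.00484 to 0.135 for the OHT effect in siCtrl cells at 48 h minus 24 h, where siCtrl 24h replicates 1 and 2 gave the ends of each range, and 0.187 to 0.282 for OHT in siRAD21 cells at 48 h. Counts of calls ran from 0 to 1 for OHT in siCtrl cells at 48 h (0 without siCtrl 48h replicate 1 or siCtrl OHT 48h replicate 2), from 1 to 2 for OHT in siRAD21 cells at 48 h (2 without siRAD21 48h replicate 2) and from 1 to 2 for siRAD21 OHT against siCtrl at 48 h (2 without siCtrl 48h replicate 2). Single genes near 0 that changed sign were PSMB8 for siRAD21 at 24 h (-0.0428 to 0.184), PSMD10 (-0.0753 to 0.0309) and PSMB1 (-0.0468 to 0.0229) for siRAD21 at 48 h, PSMA4 for OHT in siCtrl cells at 24 h (-0.132 to 0.0267) and 48 h (-0.0528 to 0.0137), PSMD9 for OHT in siRAD21 cells at 48 h (-0.0184 to 0.0489), PSMA2 (-0.0791 to 0.0182) and PSMD9 (-0.18 to 0.00999) in the interaction at 24 h, PSMB10 (-0.0161 to 0.0833) and PSMD12 (-0.141 to 0.0283) in the interaction at 48 h, PSMB2 for the siRAD21 effect at 48 h minus 24 h (-0.0262 to 0.109), and PSMB4 (-0.1 to 0.0307), PSMB9 (-0.224 to 0.0847) and PSMD10 (-0.152 to 0.0103) for the OHT effect in siCtrl cells at 48 h minus 24 h. Of all other values, 2316 single-gene values kept direction and side of the threshold, 7 gained and 6 lost it. Depth limited PSMA6 (93 to 131 reads per library) and PSMB9 (110 to 285) most.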
